A study of Mus musculus with 12 samples.

Results

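Kidneys of mice with a hypomorphic Pkd1 allele (RC/RC) were compared with WT kidneys across all genes, using 8 of the 12 samples of the series, 4 mice per genotype. RC/RC mice are homozygous for the RC knock-in, a missense allele of Pkd1 carried by every cell of the animal, and serve as a slowly progressing model of autosomal dominant polycystic kidney disease. WT mice carry normal Pkd1. All 8 mice were on the C57BL/6J background, were 6 months old and had no other engineered allele, and each genotype had 2 females and 2 males. The remaining 4 samples, RC/RC mice that also lack Casp1, took no part in the comparison. Poly(A) RNA was sequenced from 1 kidney sample per mouse, and the deposited raw read counts were used. The columns of the deposited table name each mouse by strain and number (mice B6_2, B6_3, B6_4 and B6_6 are WT, and mice RC105, RC139, RC140 and RC143 are RC/RC) but do not give its sex, and the labels give no litter, batch or date.

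Pkd1 encodes polycystin-1, a large membrane protein that acts together with polycystin-2 at the primary cilium and at cell contacts of tubule cells. When too little working polycystin-1 is present, tubules widen into cysts whose walls proliferate and secrete fluid, a process driven in part by cAMP. The tissue around the cysts becomes inflamed and fibrotic, and transporting tubule is lost.

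The WT libraries held 21761432, 22616732, 20556335 and 22656309 counted reads in mice B6_2, B6_3, B6_4 and B6_6, and the RC/RC libraries held 24206534, 18019819, 19292181 and 24284831 counted reads in mice RC105, RC139, RC140 and RC143. Coordinates are those of the deposited table, whose build the submitters' notes name as mm10. Values per mouse are given in these orders throughout, in CPM (counts per 1000000 reads of the library, scaled by TMM factors), and ± is the SD of 4 mice. The most abundant gene of a list is the one with the highest mean FPKM (counts scaled by both gene length and reads counted), since CPM does not allow levels of genes of different length to be compared. Reads of mitochondrial genes made up 9.85, 9.96, 9.37 and 10.6 percent of the WT and 8.68, 12.1, 11.6 and 9.37 percent of the RC/RC libraries, so the genotypes overlapped. The first principal component of all tested genes held 51.5 percent of the variance and put every RC/RC library below 0, from -74.2 in mouse RC139 to -21.7 in mouse RC143, and every WT library above 0. Defining transcripts of kidney epithelium were abundant in all 8 libraries. Umod, the urinary protein of the thick ascending limb, was at 3921, 4994, 2848 and 3728 CPM in the WT and 3596, 2326, 2462 and 2749 CPM in the RC/RC mice. Slc34a1, the phosphate cotransporter of the proximal tubule, was at 4767, 5405, 6065 and 6737 CPM in the WT and 2585, 2009.7, 3868 and 5553 CPM in the RC/RC mice. The Xist transcript, made from the inactive X chromosome, was at 274 to 426 CPM in WT mice B6_2 and B6_3 and RC/RC mice RC105 and RC139 and at 0.347 CPM or less in the others. That pattern matches the 2 females and 2 males that the labels give each genotype, although no column is labelled by sex.

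Libraries of both genotypes stood apart for adipose and urothelial transcripts. Adipoq, the hormone adiponectin of fat cells, was at 0.0466, 0, 3.17 and 0.0464 CPM in the WT and 0.0375, 98.0, 0 and 11.4 CPM in the RC/RC mice. RC/RC mice RC139 and RC143 and WT mouse B6_4 were the libraries above background. The 7 adipose genes summed to 0.466, 1.44, 29.2 and 0.232 CPM in the WT and 0.3001, 1409, 0.526 and 145 CPM in the RC/RC mice, and their most abundant gene was Cfd. The 6 urothelial genes, led by Upk1a, summed to 7.64, 7.87, 35.7 and 2.36 CPM in the WT and 12.6, 36.1, 9.94 and 22.7 CPM in the RC/RC mice, with the high values in WT mouse B6_4 and RC/RC mouse RC139. The 5 skeletal muscle genes summed to 0.52 CPM or less in every library. The counts of several lists are therefore also given without RC/RC mouse RC139. A bulk sample cannot tell fewer cells of a type from less RNA per cell, and this holds for every marker given here.

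Of 35275 genes in the table, 11617 had no read in the 8 mice and 15243 were tested. RC/RC kidneys had 1487 genes higher and 484 lower at an adjusted p under 0.05 with edgeR's quasi-likelihood test (differentially expressed genes, DEGs). This is 12.9 percent of the genes tested, 9.76 percent higher and 3.18 percent lower, and these shares are the background for each list below. The DEGs that were higher changed more than those that were lower, with a median log2 fold change of 1.40 against -0.78, while the median of all genes tested was -0.02. A change of at least 2-fold was reached by 1101 of the higher and 178 of the lower DEGs. Genes whose RC/RC mice were all above or all below the WT mice made up 12.5 and 7.01 percent of the genes tested, and they included 1410 of the higher and 461 of the lower DEGs. Reads in the higher DEGs took 2.13, 1.87, 1.84 and 1.66 percent of the WT and 4.65, 6.15, 4.29 and 3.43 percent of the RC/RC libraries. Scaling by library size alone shifted the split, with 86.1 percent of DEGs higher against 75.4 percent under TMM. The number of DEGs depended on single mice, as it was 1162 without WT mouse B6_6, 1270 without RC/RC mouse RC139 and 2440 without RC/RC mouse RC143. Nothing in the labels says how the kidneys of a genotype were collected, so these p-values measure the spread between these mice. The fit had no term for sex, so differences between females and males of a genotype are part of that spread. The second principal component held 23.1 percent of the variance and was above 0 only in the libraries with Xist.

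**Figure D1:**
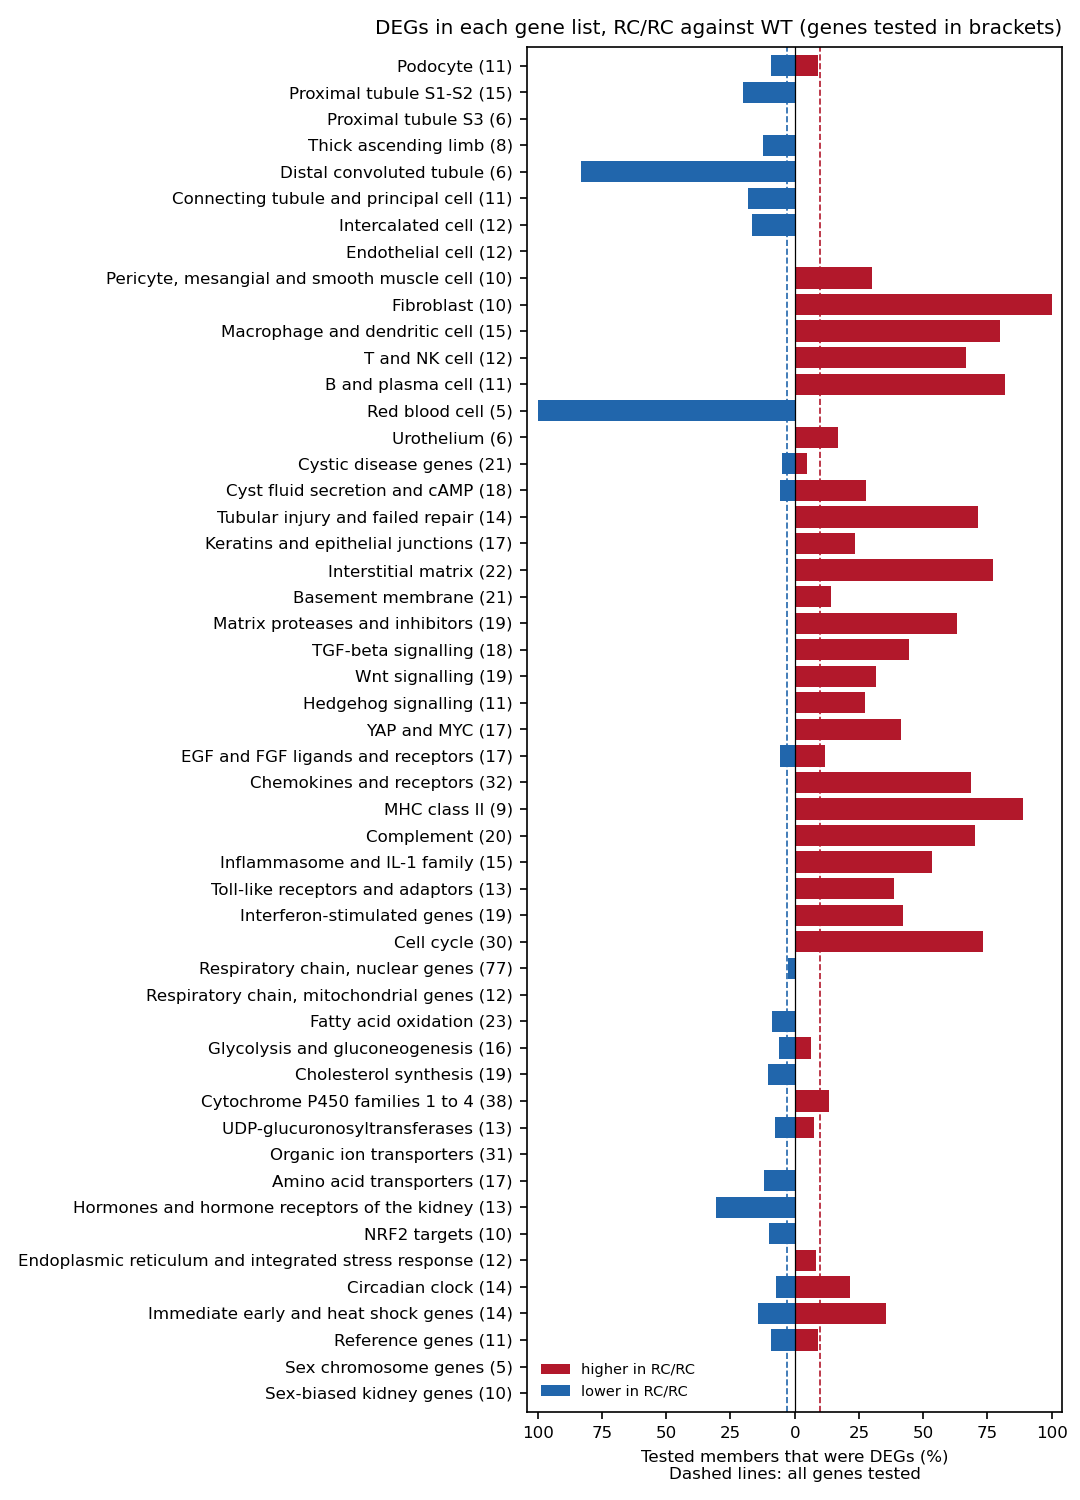
Share of the tested genes of each list that were DEGs (x axis, percent, lower in RC/RC to the left and higher to the right), with the number of tested genes in brackets and dashed lines at the shares of all genes tested (3.18 percent lower, 9.76 percent higher). All 10 fibroblast genes were higher, all 5 red blood cell genes and 5 of 6 distal convoluted tubule genes were lower, and the respiratory chain and organic ion transporter lists lay at or below the dashed lines.

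Most genes that cause cystic kidney disease in humans or mice were not DEGs. Pkd1 itself (chr17:24549950-24596514) was at 39.3, 41.4, 66.5 and 61.0 CPM in the WT and 57.7, 66.1, 45.5 and 47.1 CPM in the RC/RC mice, a log2 fold change of 0.06 with an SE of 0.20 and an adjusted p of 0.88. The groups overlapped, and the sign of the difference depended on the mice included. It was -0.058, -0.040 and -0.078 without WT mouse B6_2, WT mouse B6_3 and RC/RC mouse RC139. Pkd2, which encodes polycystin-2, went from 278 ± 15.3 to 319.5 ± 55.3 CPM (log2 fold change 0.20, adjusted p = 0.38), and Pkhd1, the gene of the recessive disease, from 153 ± 17.04 to 162 ± 68.6 CPM (log2 fold change 0.08, adjusted p = 0.86). Of the 21 tested cystic disease genes, Glis2 was higher and Tsc2 lower (3 lower without RC/RC mouse RC105), and the list's median log2 fold change was -0.17. Tsc2 (chr17:24595937-24632629) encodes the tuberin subunit of the complex that restrains mTORC1, and its coordinates overlap the end of Pkd1. The strand setting is not given, so reads in the overlap cannot be told apart between them. Tsc2 was at 94.7, 97.8, 92.4 and 97.1 CPM in the WT and 67.2, 54.6, 57.3 and 66.0 CPM in the RC/RC mice (log2 fold change -0.64, SE 0.10, adjusted p = 0.004). Every RC/RC mouse was below every WT mouse, and the call held with any 1 mouse left out. Glis2, a ciliary transcription factor of nephronophthisis, had a log2 fold change of 0.45 and lost its call without WT mouse B6_2, B6_4 or B6_6 or RC/RC mouse RC105, RC139 or RC140 (adjusted p up to 0.10).

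Most genes of the distal convoluted tubule were lower in RC/RC kidneys. This short segment reabsorbs salt through the thiazide-sensitive cotransporter and handles magnesium. Slc12a3 (chr8:94329192-94366213), the gene of that cotransporter, was at 980.4, 937, 782 and 1142 CPM in the WT and 377, 143, 141 and 281 CPM in the RC/RC mice (log2 fold change -2.03, SE 0.33, adjusted p = 0.0044). Even mouse RC105, the highest of the RC/RC mice, was far below the lowest WT mouse, and mice RC139 and RC140 were lowest. Klhl3 and Wnk4, the ubiquitin ligase adaptor and the kinase that set the cotransporter's activity, fell with log2 fold changes of -1.48 and -0.64. Pvalb, a calcium-binding protein of the early segment, fell from 24.6 ± 9.07 to 9.36 ± 1.86 CPM (log2 fold change -1.40), and Cnnm2, a magnesium transport protein, by a log2 fold change of -0.67. In all, 5 of the 6 tested genes of the segment were lower DEGs (median log2 fold change -1.09), and the same number was called with each mouse left out. Trpm6, the apical magnesium channel, was the exception (log2 fold change -0.79, adjusted p = 0.17).

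Along the rest of the distal nephron single genes were lower DEGs, while most markers were not DEGs. Calb1 (chr4:15881264-15908064), the calcium buffer calbindin of the late distal and connecting tubule, was at 649, 578, 239.8 and 459 CPM in the WT and 139, 75.9, 73.2 and 139 CPM in the RC/RC mice (log2 fold change -2.17, SE 0.35, adjusted p = 0.0041). Mice of the 2 genotypes did not overlap, and WT mouse B6_4 was the lowest of its group. The list of 11 tested connecting tubule and principal cell genes had 2 lower DEGs, Calb1 and the sodium-calcium exchanger Slc8a1, and a median log2 fold change of 0.43. Slc8a1 (log2 fold change -1.40) lost its call without WT mouse B6_2, B6_3 or B6_6 or RC/RC mouse RC139, RC140 or RC143 (adjusted p up to 0.10). Aqp2, the vasopressin-regulated water channel, went from 284 ± 112 to 587 ± 197 CPM (log2 fold change 1.05, adjusted p = 0.074). Egf, whose prohormone is made in the distal nephron, was at 1595, 2559.9, 1311 and 1749 CPM in the WT and 1238.02, 412, 513 and 828 CPM in the RC/RC mice, and its call (log2 fold change -1.27, adjusted p = 0.045) was lost without WT mouse B6_2, B6_3 or B6_6 or RC/RC mouse RC139, RC140 or RC143 (adjusted p up to 0.12). It was the only DEG among 8 thick ascending limb genes, of which Umod had a log2 fold change of -0.48 and Slc12a1, the loop diuretic target, -0.62, neither called. Of the 8 genes 7 had a negative log2 fold change. Without RC/RC mouse RC105 the list had 2 lower DEGs, Egf and Slc12a1. Klk1, the kallikrein of the connecting tubule, fell from 1881 ± 625 to 497 ± 293 CPM and lost its call without WT mouse B6_3 or RC/RC mouse RC139 (adjusted p up to 0.051). Among 12 intercalated cell genes, the insulin receptor-related alkali sensor Insrr (log2 fold change -1.03) and the basolateral exchanger Slc4a9 (-0.96) were lower, and 11 of the 12 had a negative fold change. Slc4a9 lost its call without WT mouse B6_6 or RC/RC mouse RC140 (adjusted p up to 0.053).

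**Figure D2:**
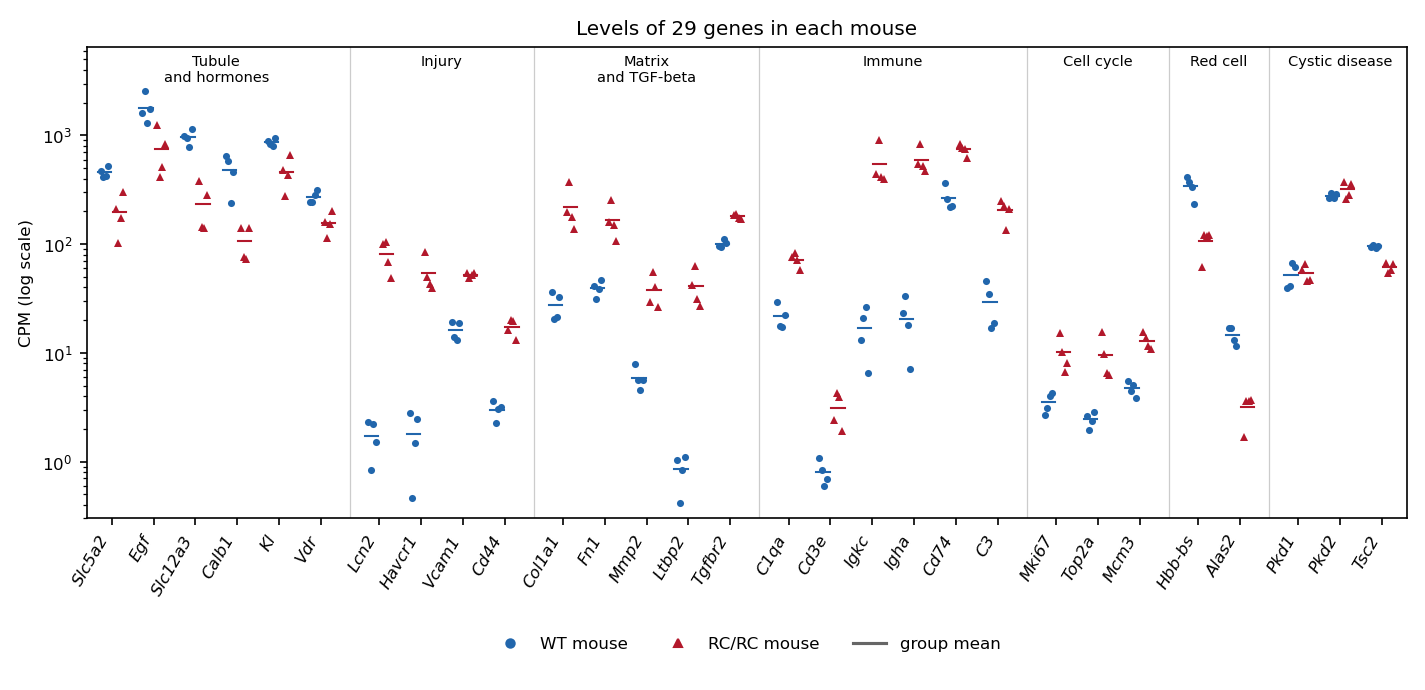
CPM of selected genes (x axis, by role) in each of the 4 WT mice (blue circles) and 4 RC/RC mice (red triangles) on a log scale (y axis), with horizontal bars at the group means. Slc12a3, Calb1, Hbb-bs and Tsc2 lie lower and the injury, matrix, immune and cell cycle genes higher in all RC/RC mice, and Pkd1 and Pkd2 overlap between the genotypes.

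All 15 genes of the first segments of the proximal tubule, which recover glucose, phosphate, amino acids and filtered protein, had negative log2 fold changes (median -0.71), but 3 of them were DEGs. These were Slc5a2, the glucose transporter inhibited by gliflozins, Cubn, the endocytic receptor cubilin, and the phosphate transporter Slc34a3. Slc5a2 was at 471, 418, 424 and 527 CPM in the WT and 212, 102, 173 and 298 CPM in the RC/RC mice (log2 fold change -1.23, SE 0.28, adjusted p = 0.02). RC/RC mice lay below all WT mice, with mouse RC139 the lowest and mouse RC143 the closest to WT. Its call was lost without WT mouse B6_6 or RC/RC mouse RC140 (adjusted p up to 0.064). Cubn lost its call without WT mouse B6_4 or B6_6 or RC/RC mouse RC139 or RC140 (adjusted p up to 0.09), and Slc34a3 without WT mouse B6_6 (adjusted p up to 0.052). The number of lower DEGs in this list was 0 without WT mouse B6_6, 1 without RC/RC mouse RC140, 2 without RC/RC mouse RC139 and 6 without RC/RC mouse RC143, and it was 8 with DESeq2 and 6 with the spread taken from all 12 mice. The 15 genes summed to 16994, 20049.8, 18501 and 21649 CPM in the WT and 10081, 8356, 11945 and 16982 CPM in the RC/RC mice, and RC/RC mouse RC143 was just below the lowest WT mouse. The 6 genes of the last proximal segment differed more within each genotype than between them. Their sum was 735, 971, 3957 and 2984 CPM in the WT and 1031, 621, 1536 and 2116 CPM in the RC/RC mice, with the higher values in the 4 libraries without Xist, and none of the 6 was a DEG. Slc7a13, an amino acid transporter of that segment known to be more abundant in males, was at 2.14 to 4.33 CPM in the 4 libraries with Xist and at 1091, 893, 520.1 and 701 CPM in the others.

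Among hormone and transport genes of the tubule single members were called and not whole families. Kl, which encodes klotho, the coreceptor for FGF23, was at 892, 838, 798 and 954 CPM in the WT and 485, 277, 434 and 665 CPM in the RC/RC mice, and its log2 fold change of -0.90 was a call that was lost without WT mouse B6_2, B6_3, B6_4 or B6_6 or RC/RC mouse RC105 or RC140 (adjusted p up to 0.1). Vdr, the vitamin D receptor (log2 fold change -0.79), and Cyp24a1, the enzyme that degrades vitamin D (-2.27), were lower. Vdr lost its call without WT mouse B6_6 or RC/RC mouse RC140 (adjusted p up to 0.062), and Cyp24a1 without WT mouse B6_2, B6_3 or B6_6 or RC/RC mouse RC140 or RC143 (adjusted p up to 0.10). Cyp27b1, the enzyme that activates vitamin D, had a log2 fold change of 0.46 (adjusted p = 0.46), and Ren1, which encodes renin, of -0.80 (adjusted p = 0.27). In the list of 13 hormone genes 4 were lower DEGs, and this became 0 without WT mouse B6_6 or RC/RC mouse RC140. The amino acid transporters Slc7a8 and Slc16a10, which form the basolateral exit for neutral and aromatic amino acids, fell from 323 ± 109.6 to 108 ± 20.9 CPM and from 93.8 ± 22.0 to 44.3 ± 9.49 CPM, and both calls held with any 1 mouse left out. The other 15 tested amino acid transporters were not DEGs, nor were any of 31 organic ion transporters, although 3 of the latter were lower DEGs without RC/RC mouse RC105 and 4 amino acid transporters without RC/RC mouse RC143. Among 23 fatty acid oxidation genes Ppara, the transcription factor that drives the program, was at 83.6, 98.6, 75.8 and 90.1 CPM in the WT and 54.2, 30.7, 44.6 and 56.7 CPM in the RC/RC mice (log2 fold change -0.90, SE 0.19, adjusted p = 0.013). Ppara did not overlap between the genotypes, and with the coactivator Ppargc1a (-0.73, adjusted p = 0.047) it made 2 lower DEGs, 8.70 percent of the list. This count was 4 without RC/RC mouse RC143 and 1 without WT mouse B6_2, B6_3 or B6_6 or RC/RC mouse RC139 or RC140, and Ppargc1a lost its call without WT mouse B6_2, B6_3 or B6_6 or RC/RC mouse RC139, RC140 or RC143 (adjusted p up to 0.13), whereas the enzymes Acadm (0.30) and Cpt1a (-0.42) had log2 fold changes that were not called.

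Most transcripts of tubular injury were higher in RC/RC kidneys. Lcn2 (chr2:32384633-32387797), the secreted iron-siderophore carrier NGAL used as a kidney injury marker, was at 2.33, 0.838, 2.23 and 1.53 CPM in the WT and 100.4, 104.3, 68.9 and 48.6 CPM in the RC/RC mice (log2 fold change 5.54, SE 0.37, adjusted p = 6.5e-05). Havcr1 (chr11:46735080-46779578), the injury receptor KIM-1 of proximal tubule, was at 2.80, 0.466, 1.49 and 2.46 CPM in the WT and 83.8, 49.7, 42.7 and 39.5 CPM in the RC/RC mice (log2 fold change 4.90, SE 0.47, adjusted p = 3.9e-04). For both genes the lowest RC/RC mouse was above the highest WT mouse many times over, and RC/RC mouse RC143 had the smallest value. Markers of the state in which injured proximal cells fail to redifferentiate were also higher. Vcam1, an adhesion molecule, rose from 16.2 ± 3.12 to 52.2 ± 2.40 CPM (log2 fold change 1.68, adjusted p = 2.1e-04), and it was as even across RC/RC mice as across WT mice. Sox9, a transcription factor of tubule repair, was at 0.979, 1.16, 0.842 and 0.742 CPM in the WT and 2.63, 2.81, 3.89 and 3.83 CPM in the RC/RC mice (log2 fold change 1.81). Cd44, the hyaluronan receptor, rose by a log2 fold change of 2.52, Ccl2, the monocyte attractant, by 3.56, and Timp1, the metalloproteinase inhibitor, by 4.91. Of 14 tested injury genes 10 were higher DEGs and none was lower (median log2 fold change 1.84), and 10 were called with each mouse left out. Spp1, which encodes osteopontin, was the most abundant of them and was at 2066, 1541, 481 and 696 CPM in the WT and 5326, 3342, 2046 and 2011 CPM in the RC/RC mice, which overlapped (adjusted p = 0.092). Vcam1, Cd44, Ccl2 and Timp1 are also expressed by stromal or immune cells.

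Some epithelial keratin and junction genes were higher. Krt8, the simple epithelial keratin, was at 102, 100.2, 124 and 87.8 CPM in the WT and 167, 183, 191 and 165 CPM in the RC/RC mice (log2 fold change 0.77, SE 0.13, adjusted p = 0.0055), and Cldn4, a claudin of the collecting duct, went from 23.0 ± 6.99 to 50.8 ± 5.97 CPM (log2 fold change 1.15). Neither gene overlapped between the genotypes. Krt18, the partner of Krt8, had a log2 fold change of 1.27 and lost its call without WT mouse B6_2, B6_3 or B6_6 or RC/RC mouse RC105, RC139 or RC140 (adjusted p up to 0.093). With Cldn3, these were 4 higher DEGs of 17 tested, none was lower, and the median log2 fold change was 0.26. The count was 2 without RC/RC mouse RC105, RC139 or RC140, with 2 lower DEGs without mouse RC105, and Cldn3 lost its call without WT mouse B6_4 or RC/RC mouse RC105, RC139 or RC140 (adjusted p up to 0.084). Cdh1 and Cdh16, the cadherins of tubule epithelium, had log2 fold changes of -0.26 and -0.15, neither called.

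Genes for cyst fluid secretion and cAMP did not move as a group. Cftr, the chloride channel held to drive fluid into cysts, was at 7.22, 8.20, 10.6 and 11.7 CPM in the WT and 7.01, 3.53, 4.52 and 9.81 CPM in the RC/RC mice (log2 fold change -0.59, adjusted p = 0.24), and the groups overlapped. Ano1, a calcium-activated chloride channel, rose from 8.99 ± 1.29 to 16.97 ± 4.89 CPM and lost its call without WT mouse B6_3 or B6_6 (adjusted p up to 0.057). Adcy7, an adenylyl cyclase best known from leukocytes, rose from 6.89 ± 1.73 to 21.7 ± 6.10 CPM (log2 fold change 1.66), and Ptger4, the prostaglandin E2 receptor EP4 that raises cAMP, from 4.12 ± 0.642 to 11.7 ± 3.29 CPM (log2 fold change 1.504). Both held with any 1 mouse left out. Adcy6, the main cyclase of the tubule, had a log2 fold change of -0.55 (adjusted p = 0.084). Pde4c, a phosphodiesterase of tubule cells that degrades cAMP, fell from 90.7 ± 35.3 to 45.7 ± 9.31 CPM and lost its call without WT mouse B6_4 or B6_6 or RC/RC mouse RC105, RC139 or RC140 (adjusted p up to 0.11). The list of 18 had 5 higher DEGs and 1 lower, a median log2 fold change of 0.09, and 2 higher DEGs without WT mouse B6_3 or B6_6.

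Most interstitial matrix genes and all listed fibroblast genes were higher in RC/RC kidneys. Col1a1 (chr11:94936224-94953042), the alpha-1 chain of type I collagen, was at 36.2, 20.6, 21.3 and 32.5 CPM in the WT and 199, 370.1, 179 and 137 CPM in the RC/RC mice (log2 fold change 3.001, SE 0.34, adjusted p = 8.1e-04). Every RC/RC mouse was far above every WT mouse, and mouse RC139 was the highest. Col3a1, the type III collagen, rose from 45.2 ± 14.0 to 345 ± 141 CPM, Fn1, fibronectin, from 39.3 ± 6.42 to 168 ± 62.9 CPM, and Dcn, the proteoglycan decorin, from 30.6 ± 3.70 to 169.5 ± 62.0 CPM. Lox, the enzyme that crosslinks collagen, had a log2 fold change of 2.65, and Mgp, a matrix protein that blocks calcification, rose from 99.95 ± 36.7 to 595 ± 320.0 CPM and was among the 5 DEGs with the largest gain in mean CPM. Of 22 interstitial matrix genes 17 were higher DEGs and none was lower (median log2 fold change 1.67). Of 10 fibroblast genes, which share Col1a1, Col3a1, Dcn and others with that list, all 10 were higher DEGs and all 10 had groups that did not overlap. Pdgfra, the receptor that marks resident fibroblasts, rose least (from 41.3 ± 5.93 to 79.5 ± 24.8 CPM) and lost its call without WT mouse B6_3 or B6_6 or RC/RC mouse RC105 or RC139 (adjusted p up to 0.062). RC/RC mouse RC139, the library with the most adipose transcripts, was also the highest for the fibroblast sum, at 1842 CPM against 1102, 1007 and 781 CPM. Without it 8 fibroblast and 14 matrix genes were still called higher. WT mice summed to 260.0, 185, 219 and 244 CPM, with mouse B6_4 within the range of the other WT mice.

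Most basement membrane genes were not DEGs. Col4a1, the type IV collagen chain and most abundant gene of the list, was at 339.5, 266, 260.3 and 316 CPM in the WT and 438, 584, 381 and 347 CPM in the RC/RC mice (log2 fold change 0.57, adjusted p = 0.076). The genotypes did not overlap, but the difference did not pass the test. Nid1, nidogen, rose from 72.1 ± 8.78 to 145 ± 44.6 CPM and Lama4, a laminin chain of vessels, from 9.78 ± 2.18 to 21.4 ± 6.80 CPM, and with Lamc1 they were 3 higher DEGs of 21 tested. This count was 5 without RC/RC mouse RC143, 2 without WT mouse B6_2, B6_3 or B6_6 or RC/RC mouse RC105 or RC139, and 6 with DESeq2. Lamc1 was at the threshold (adjusted p = 0.05), and its call was lost without WT mouse B6_2, B6_3, B6_4 or B6_6 or RC/RC mouse RC105 or RC139 (adjusted p up to 0.13). The median log2 fold change was 0.10, and Col4a3, a chain of the glomerular membrane, was at -1.05 (adjusted p = 0.053).

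Most matrix proteases and inhibitors tested were higher in RC/RC kidneys. Mmp2, the gelatinase of fibroblasts, rose from 5.92 ± 1.37 to 38.0 ± 13.4 CPM (log2 fold change 2.68), and Adamts2, which trims procollagen, from 5.14 ± 1.33 to 31.1 ± 11.95 CPM. For both genes RC/RC mouse RC139 was the highest and no RC/RC mouse overlapped WT. Timp1 was at 0.932, 0.326, 0.149 and 0.556 CPM in the WT and 13.3, 29.2, 12.1 and 5.43 CPM in the RC/RC mice (log2 fold change 4.91, SE 0.62, adjusted p = 0.0016), while Timp3, the most abundant gene of the list, had a log2 fold change of -0.52 (adjusted p = 0.16). In all 12 of 19 proteases and inhibitors were higher DEGs and none was lower, and 10 without RC/RC mouse RC139.

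Some pericyte and smooth muscle genes were higher, and no listed endothelial gene was a DEG. Of 10 pericyte, mesangial and smooth muscle genes 3 were higher DEGs, and the median log2 fold change was 0.77. Pdgfrb, the receptor shared by pericytes and interstitial fibroblasts, went from 49.8 ± 8.28 to 96.3 ± 25.9 CPM, and Tagln, a smooth muscle actin-binding protein, from 44.6 ± 6.11 to 122 ± 66.7 CPM. Acta2, smooth muscle actin and a myofibroblast marker, was at 48.5, 45.7, 50.8 and 34.2 CPM in the WT and 70.8, 196, 104.4 and 67.4 CPM in the RC/RC mice (log2 fold change 1.29), with RC/RC mouse RC139 well above the rest, and its call was lost without WT mouse B6_2, B6_3, B6_4 or B6_6 or RC/RC mouse RC140 (adjusted p up to 0.088). The count of the list was 5 without RC/RC mouse RC143, 3 without mouse RC139 or RC105 and 2 without any other mouse. None of 12 endothelial genes was a DEG (median log2 fold change 0.44), with Pecam1, the junction protein CD31, at 0.42. Of 11 tested podocyte genes 1 was a lower and 1 a higher DEG (18.2 percent, against 12.9 percent of all genes tested). The median log2 fold change of the 11 was -0.19, and the genotypes overlapped for each gene. The lower DEG was nephrin, Nphs1 (log2 fold change -0.62), and the higher was the transcription factor Tcf21 (1.52), which interstitial fibroblasts also express. Nphs1 lost its call without WT mouse B6_2, B6_3 or B6_6 or RC/RC mouse RC105, RC140 or RC143 (adjusted p up to 0.10), and Tcf21 without WT mouse B6_4 or B6_6 or RC/RC mouse RC139 or RC140 (adjusted p up to 0.071).

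Ligands and receptors of growth pathways were then read in order of their roles. In TGF-beta signalling the ligands Tgfb1 (from 23.0 ± 6.17 to 51.3 ± 15.4 CPM) and Tgfb3 (from 2.78 ± 0.580 to 10.2 ± 3.502 CPM) and the receptor Tgfbr2 (from 101.1 ± 7.88 to 179.9 ± 9.76 CPM) rose, with log2 fold changes of 1.15, 1.87 and 0.83. Inhba, whose product forms activin A, was at 0.140, 0.186, 0.0991 and 0.0927 CPM in the WT and 1.39, 2.18, 1.10 and 1.43 CPM in the RC/RC mice (log2 fold change 3.496). Ltbp2, a microfibril protein of the latent TGF-beta binding protein family, was at 1.03, 0.419, 0.842 and 1.11 CPM in the WT and 41.9, 63.0, 31.4 and 26.8 CPM in the RC/RC mice (log2 fold change 5.57, SE 0.37, adjusted p = 6.5e-05). Ltbp2 was barely detected in WT mice and plainly present in all RC/RC mice. The signal transducers Smad2, Smad3 and Smad4 were not called, nor was the receptor Tgfbr1. The list had 8 higher DEGs of 18 and none lower (median log2 fold change 0.69), and 8 or 9 with any 1 mouse left out.

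Wnt7a (chr6:91363981-91411363), a secreted ligand of the Wnt family, was all but absent from WT kidneys. It was at 0, 0.0466, 0 and 0 CPM in the WT and 2.96, 2.81, 2.16 and 2.02 CPM in the RC/RC mice, which was 1 read in the 4 WT libraries together, and WT mouse B6_3 held that read. All RC/RC mice were at 2.02 CPM or more. Wnt10a, another ligand, rose from 0.856 ± 0.3995 to 3.25 ± 0.966 CPM, and Tcf7, a transcription factor of the pathway that T cells also express, from 1.48 ± 0.462 to 6.63 ± 2.38 CPM. Wnt4, a ligand of kidney development, was at 2.24, 2.38, 14.0 and 1.44 CPM in the WT and 9.003, 12.5, 11.5 and 5.01 CPM in the RC/RC mice and was not called, and WT mouse B6_4 overlapped the RC/RC mice. Its log2 fold change ranged from 0.61 to 2.19 with 1 mouse left out, and it was called only without WT mouse B6_4. The Wnt list had 6 higher DEGs of 19. In the Hedgehog list 3 of 11 were higher DEGs, among them the factors Gli1 and Gli3, and 1 was called without WT mouse B6_3, WT mouse B6_6 or RC/RC mouse RC139. Gli1 lost its call without WT mouse B6_2, B6_3, B6_4 or B6_6 or RC/RC mouse RC139 or RC140 (adjusted p up to 0.14), and Gli3 without WT mouse B6_3 or B6_6 or RC/RC mouse RC105 or RC139 (adjusted p up to 0.071). Among growth factor genes Hgf, made by stromal cells, rose from 3.14 ± 0.552 to 8.08 ± 2.46 CPM, and its receptor Met had a log2 fold change of -0.23 (adjusted p = 0.51). Egfr was at -0.16 (adjusted p = 0.64).

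Myc and some targets of YAP were higher. Myc was at 6.29, 7.08, 5.65 and 3.39 CPM in the WT and 11.8, 19.2, 19.1 and 11.1 CPM in the RC/RC mice (log2 fold change 1.45, SE 0.27, adjusted p = 0.009), and no RC/RC mouse overlapped WT. Cyr61, the matricellular YAP target now named Ccn1, was at 14.4, 12.3, 23.9 and 16.2 CPM in the WT and 78.3, 66.7, 78.6 and 69.6 CPM in the RC/RC mice (log2 fold change 2.13, SE 0.19, adjusted p = 3.4e-04), with RC/RC mice within a narrow range. Ankrd1, another target, rose from 3.14 ± 1.17 to 11.2 ± 3.19 CPM. The coactivators themselves, Yap1 and Wwtr1, had log2 fold changes of 0.02 and 0.32, neither called. The list had 7 higher DEGs of 17 and none lower, and 6 without RC/RC mouse RC139.

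Most myeloid transcripts rose. C1qa, a complement subunit made by tissue macrophages, was at 29.4, 17.6, 17.4 and 22.3 CPM in the WT and 75.8, 82.4, 71.1 and 58.3 CPM in the RC/RC mice (log2 fold change 1.73, SE 0.19, adjusted p = 6.9e-04). Cd68, a lysosomal macrophage protein, rose from 3.37 ± 1.16 to 10.8 ± 1.78 CPM, Itgam, the integrin CD11b, from 2.997 ± 0.567 to 10.1 ± 1.43 CPM, and the chemokine receptors Cx3cr1 and Ccr2 of resident and recruited cells from 4.27 ± 1.44 to 17.01 ± 6.23 CPM and from 5.33 ± 1.419 to 19.1 ± 5.28 CPM. All RC/RC mice were above all WT mice for these genes, and mouse RC105 was the highest for Cx3cr1 and Ccr2. Of 15 macrophage and dendritic cell genes 12 were higher DEGs and none was lower (median log2 fold change 1.52). Csf1r, the receptor of the macrophage growth factor, was not called at 60.8, 73.3, 78.0 and 63.8 CPM in the WT and 133, 93.5, 81.9 and 83.2 CPM in the RC/RC mice (log2 fold change 0.50, adjusted p = 0.083). Neutrophil genes were at low levels in both genotypes, as S100a8 was at 0.652, 0.140, 0.694 and 0.371 CPM in the WT and 0.3001, 0.520, 1.05 and 0.842 CPM in the RC/RC mice (adjusted p = 0.54) and only 3 of the 9 listed genes had enough reads to be tested.

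Most T cell and B lineage genes tested were also higher. Cd3e, a T cell receptor subunit, was at 1.07, 0.838, 0.595 and 0.696 CPM in the WT and 2.44, 4.26, 3.89 and 1.89 CPM in the RC/RC mice (log2 fold change 1.95, SE 0.34, adjusted p = 0.0063), low in every library and higher in every RC/RC mouse. In the T and NK cell list 8 of 12 tested genes were higher DEGs, and 6 without WT mouse B6_3 or RC/RC mouse RC139. The cytotoxic genes Gzma and Gzmb had too few reads for a test. Cd79a, the signalling chain of the B cell receptor, rose from 0.758 ± 0.269 to 2.76 ± 0.591 CPM, and Ms4a1, which encodes CD20, from 0.307 ± 0.117 to 0.844 ± 0.316 CPM. Ms4a1 was at the threshold (adjusted p = 0.05) and lost its call when any 1 mouse except RC/RC mouse RC140 was left out (adjusted p up to 0.14). The B and plasma cell list had 9 higher DEGs of 11 and none lower, and 6 without WT mouse B6_2, WT mouse B6_3 or RC/RC mouse RC139.

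Immunoglobulin transcripts were far higher in RC/RC kidneys. Igha, the heavy chain constant region of IgA, was at 23.2, 33.3, 18.1 and 7.05 CPM in the WT and 545, 835, 527 and 473 CPM in the RC/RC mice (log2 fold change 4.87, SE 0.46, adjusted p = 3.8e-04), and Igkc, the kappa light chain, at 13.2, 20.8, 26.7 and 6.54 CPM in the WT and 438, 916, 417 and 396 CPM in the RC/RC mice (log2 fold change 5.01, SE 0.49, adjusted p = 4.4e-04). Igj, the chain that joins IgA and IgM into polymers, was at 5.64, 8.29, 8.08 and 1.99 CPM in the WT and 152, 232, 137 and 148 CPM in the RC/RC mice (log2 fold change 4.80, SE 0.42, adjusted p = 2.8e-04). Each of these was raised in all 4 RC/RC mice, with mouse RC139 the highest, and mice RC105, RC140 and RC143 were close together. The IgG subclasses differed more between mice. Ighg1 was at 0.513, 0.0931, 0.495 and 0.556 CPM in the WT and 58.7, 24.3, 8.31 and 21.3 CPM in the RC/RC mice, Ighg2b at 0.792, 2.47, 1.49 and 1.25 CPM in the WT and 61.5, 169.8, 52.2 and 102 CPM in the RC/RC mice and Ighg2c at 0.326, 0.186, 1.19 and 0.835 CPM in the WT and 56.6, 137, 30.3 and 38.1 CPM in the RC/RC mice. RC/RC mouse RC105 had the most Ighg1, and mouse RC139 the most Ighg2b and Ighg2c. Ighm, the IgM heavy chain, was at 6.25, 5.22, 28.3 and 4.27 CPM in the WT and 54.5, 197, 20.7 and 38.5 CPM in the RC/RC mice, and its groups overlapped (log2 fold change 2.82, adjusted p = 0.053). Variable segments were counted as 70 genes, and 67 of them were higher DEGs (median log2 fold change 5.01), and 63 without RC/RC mouse RC139. Sorted by locus, and with 1 variable pseudogene added, 19 of 20 heavy chain, 46 of 48 kappa and 3 of 3 lambda genes were higher. Reads of all immunoglobulin genes summed to 60.9, 81.8, 98.5 and 28.2 CPM in the WT and 1541, 2728, 1322 and 1368 CPM in the RC/RC mice. Variable segments resemble each other, so reads may be shared among them, and the counting rule for such reads is not given in the sources used here.

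**Figure D3:**
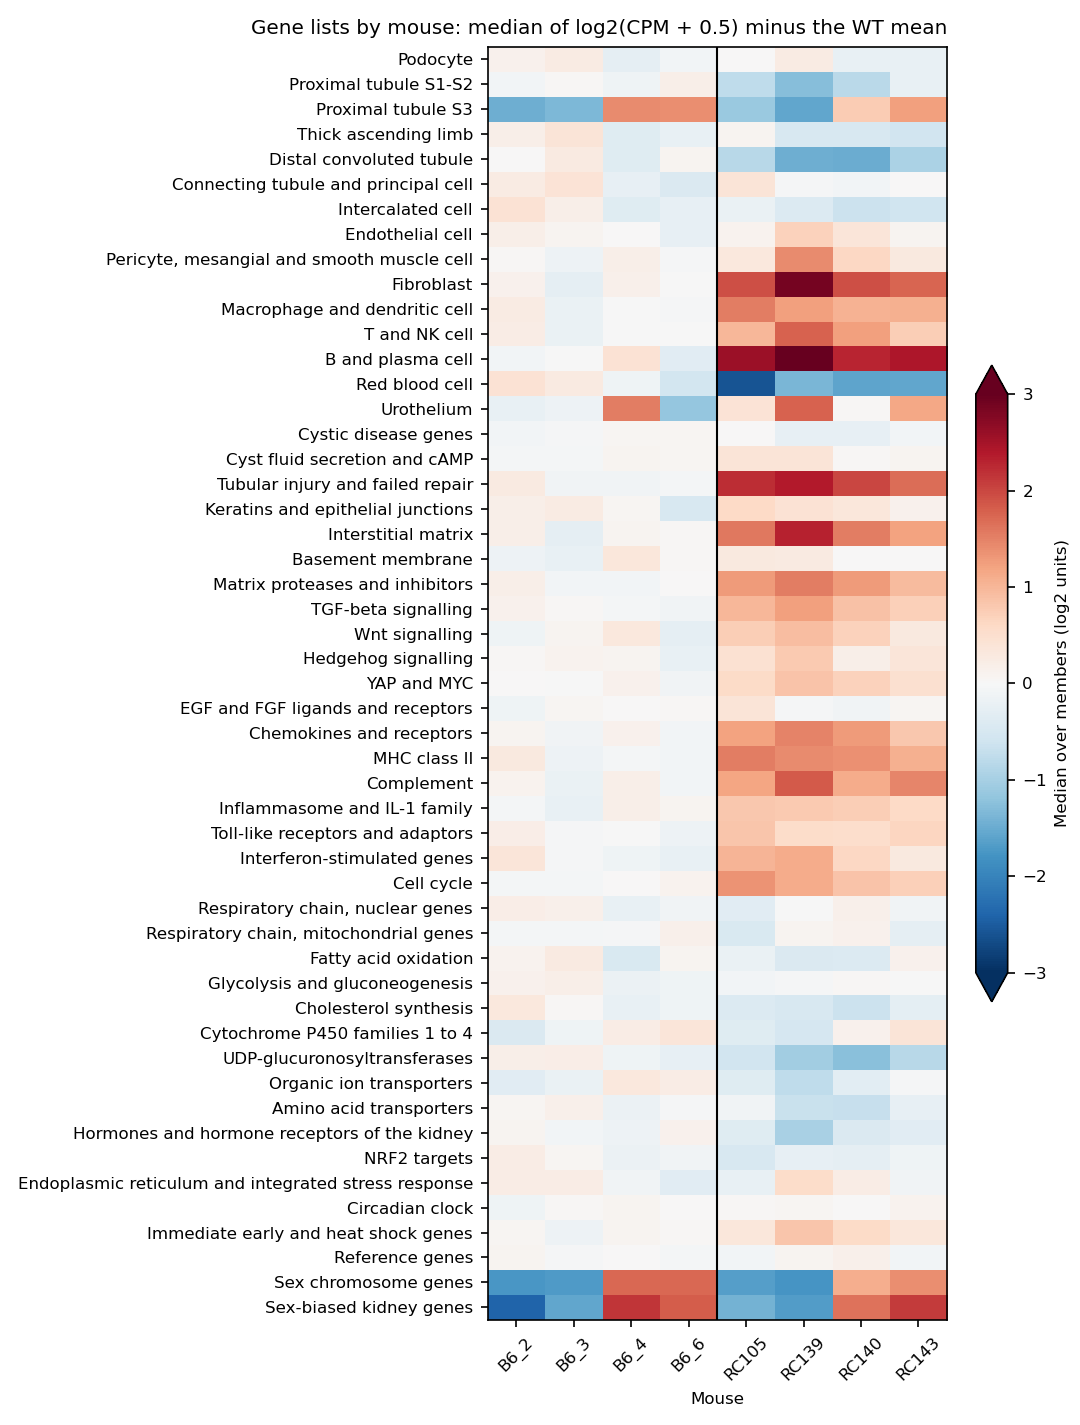
Each gene list in each mouse as the mean over its tested genes of log2(CPM + 0.5) minus the mean of the WT mice (color scale from -3 to 3, log2 units), with WT mice labelled B6 and RC/RC mice labelled RC. The values drawn are means, although the title and color scale of the figure say median. The interstitial matrix, injury and most immune lists are red in all RC/RC mice, the fibroblast, interstitial matrix and B cell lists deepest in mouse RC139, the red blood cell list is deepest blue in mouse RC105, and the last proximal segment and the sex lists split the mice of both genotypes in the same way.

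Most class II, complement and chemokine genes tested were also higher. H2-Ab1, a class II chain, was at 167, 114, 110.1 and 103.9 CPM in the WT and 353, 356, 376 and 282 CPM in the RC/RC mice (log2 fold change 1.47, SE 0.18, adjusted p = 0.0013), and Cd74, the invariant chain, rose from 267 ± 67.5 to 743 ± 89.6 CPM. Of 9 class II genes 8 were higher DEGs, including the master regulator Ciita, whose log2 fold change of 1.14 lost its call without WT mouse B6_6 or RC/RC mouse RC139 (adjusted p up to 0.06). C3, the central complement component, was at 46.1, 34.7, 16.9 and 18.7 CPM in the WT and 248, 223, 136 and 209 CPM in the RC/RC mice (log2 fold change 2.81, SE 0.35, adjusted p = 0.0013), and C4b, of the classical pathway, rose from 10.6 ± 6.20 to 50.7 ± 12.5 CPM. No RC/RC mouse overlapped WT for either. Of 20 complement genes 14 were higher DEGs and none was lower, and 13 were called without RC/RC mouse RC139. Cfd, or adipsin, the most abundant gene of the list, was at 0.140, 0.978, 18.8 and 0 CPM in the WT and 0, 1002, 0.263 and 101.3 CPM in the RC/RC mice and was not called (adjusted p = 0.16), with its high values in the 3 libraries with adipose transcripts. Of 32 chemokine and receptor genes 22 were higher DEGs and none was lower (median log2 fold change 1.66), from 19 to 27 with 1 mouse left out. Cxcl2, a neutrophil attractant, was at 0.0932, 0, 0.0495 and 0.0927 CPM in the WT and 0.638, 1.45, 1.52 and 0.632 CPM in the RC/RC mice, and Cxcl12, a stromal attractant, rose from 174 ± 28.5 to 376 ± 112 CPM. Ccl28, a mucosal attractant of IgA cells, had a log2 fold change of -1.80 (adjusted p = 0.058).

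Some cytokines and innate sensors rose. Il1rn, the antagonist of the interleukin-1 receptor, was at 0.186, 0.279, 0.0495 and 0 CPM in the WT and 1.54, 2.75, 2.63 and 1.43 CPM in the RC/RC mice (log2 fold change 3.94), the alarmin Il33 rose from 9.60 ± 1.86 to 28.1 ± 11.2 CPM, and the receptor Il1r1 from 10.6 ± 1.10 to 21.5 ± 4.71 CPM. The list of inflammasome and interleukin-1 genes had 8 higher DEGs of 15, while Nlrp6 (-0.75) and Nlrc4 (-0.72) had negative log2 fold changes that were not called. Tlr2, a receptor for bacterial lipoproteins, was at 3.402, 3.77, 2.77 and 3.34 CPM in the WT and 8.89, 9.87, 10.2 and 6.95 CPM in the RC/RC mice (log2 fold change 1.43, SE 0.18, adjusted p = 0.0017). In the Toll-like receptor list 5 of 13 were higher DEGs. Interferon-stimulated genes had positive log2 fold changes in all 19 cases and 8 higher DEGs, led by Isg15 (from 2.86 ± 0.844 to 8.75 ± 3.78 CPM). That count was 2 without WT mouse B6_3, WT mouse B6_6 or RC/RC mouse RC139 and 12 without RC/RC mouse RC143. Serpina3n, an acute phase protease inhibitor, was at 0.186, 0.0466, 0.743 and 0.232 CPM in the WT and 20.7, 69.98, 34.0 and 27.5 CPM in the RC/RC mice (log2 fold change 6.97, SE 0.62, adjusted p = 3.0e-04).

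Most proliferation genes were higher. Mki67, the marker of cycling cells, was at 2.66, 3.12, 4.01 and 4.31 CPM in the WT and 15.3, 10.3, 6.68 and 8.13 CPM in the RC/RC mice (log2 fold change 1.52, SE 0.28, adjusted p = 0.0084), and Top2a, the mitotic topoisomerase, at 2.61, 1.96, 2.38 and 2.87 CPM in the WT and 15.6, 9.82, 6.47 and 6.32 CPM in the RC/RC mice. RC/RC mouse RC105 was the highest for both, and no RC/RC mouse fell within the WT range. Ccnb2 and Cdk1, which drive entry into mitosis, rose from 0.793 ± 0.247 to 3.55 ± 1.10 CPM and from 0.928 ± 0.391 to 4.12 ± 1.32 CPM, and Mcm3, a subunit of the replicative helicase, from 4.73 ± 0.725 to 12.9 ± 2.15 CPM. Of 30 cell cycle genes 22 were higher DEGs and none was lower (median log2 fold change 1.48), with 17 to 22 called when 1 mouse was left out. Ccnd1, a G1 cyclin and the most abundant gene of the list, went from 189 ± 29.7 to 281 ± 52.0 CPM (adjusted p = 0.057). Bulk data do not show which cells carry these transcripts.

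Few genes of core energy metabolism were DEGs. Of 77 nuclear respiratory chain genes 2 were lower DEGs, and none of 12 mitochondrial ones was, with medians of -0.02 and -0.05. The nuclear count was 1 when any 1 mouse except RC/RC mouse RC143 was left out. In the mitochondrial list 1 gene was lower without RC/RC mouse RC139. The larger of the 2 nuclear changes was Ndufs5, described with its copy below. In glycolysis Hk2, the inducible hexokinase, was at 1.35, 0.512, 1.19 and 0.603 CPM in the WT and 3.75, 9.25, 4.15 and 3.75 CPM in the RC/RC mice (log2 fold change 2.51, SE 0.43, adjusted p = 0.006), and Eno1, described with its copies below, was lower. Hk2 was highest in RC/RC mouse RC139. Cholesterol synthesis genes had negative values in 17 of 19 cases (median log2 fold change -0.45) but 2 DEGs, 0 without RC/RC mouse RC105, RC139 or RC140 or WT mouse B6_2 and 7 without RC/RC mouse RC143. Ndrg1, a gene induced by hypoxia and differentiation, fell from 1151 ± 158 to 582 ± 180.1 CPM and lost its call without WT mouse B6_6 or RC/RC mouse RC139 or RC140 (adjusted p up to 0.058).

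Several genes outside these lists were also far lower in RC/RC kidneys. Gulo, the last enzyme of vitamin C synthesis in mice, was at 2.24, 3.12, 1.64 and 1.58 CPM in the WT and 0.15005, 0, 0.105 and 0.463 CPM in the RC/RC mice (log2 fold change -3.48, SE 0.63, adjusted p = 0.0078). The cytosolic dipeptidase Cndp2 was at 362, 312, 1511 and 1141 CPM in the WT and 158, 158, 272 and 254 CPM in the RC/RC mice, and Slitrk6, a transmembrane protein best known from neurons, at 7.27, 9.501, 7.63 and 7.33 CPM in the WT and 2.66, 0.104, 0.105 and 0.295 CPM in the RC/RC mice. No RC/RC mouse reached the lowest WT mouse for any of them, although Cndp2 differed severalfold among WT mice. In both genotypes the higher values of Cndp2 were in the libraries without Xist. The adhesion molecule Ceacam2 was at 81.0, 132, 22.6 and 35.1 CPM in the WT and 6.41, 3.12, 0.526 and 18.7 CPM in the RC/RC mice, with RC/RC mouse RC143 nearest to WT. Among WT mice Ceacam2 was higher in the libraries with Xist, which was not so among RC/RC mice. The calls of Slitrk6 (-3.24, adjusted p = 0.029), Ceacam2 (-3.22, adjusted p = 0.041) and Cndp2 (-1.98, adjusted p = 0.032) on the log2 scale depended on single mice. That of Slitrk6 was lost without WT mouse B6_3 or B6_6 or RC/RC mouse RC139, RC140 or RC143 (adjusted p up to 0.063), that of Ceacam2 without WT mouse B6_2, B6_3 or B6_6 or RC/RC mouse RC105, RC139 or RC140 (adjusted p up to 0.11) and that of Cndp2 without WT mouse B6_4 or B6_6 or RC/RC mouse RC105, RC139 or RC140 (adjusted p up to 0.091), while that of Gulo held with any 1 mouse left out.

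A few genes were all but absent from WT kidneys. The transcript BC018473 was at 0, 0, 0.149 and 0.0927 CPM in the WT and 67.3, 114, 121 and 113 CPM in the RC/RC mice, and St6galnac1, a sialyltransferase of O-glycans, at 0, 0, 0 and 0 CPM in the WT and 3.30, 5.77, 4.15 and 3.96 CPM in the RC/RC mice. Both were DEGs (adjusted p = 3.4e-06 and 3.9e-04), and every RC/RC mouse was above every WT mouse.

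Red blood cell transcripts were lower in all RC/RC mice. Hbb-bs, the adult beta globin, was at 417, 376, 337 and 235 CPM in the WT and 61.7, 122, 118 and 122 CPM in the RC/RC mice (log2 fold change -1.69, SE 0.25, adjusted p = 0.0032), and Hba-a1, alpha globin, at 337, 323, 226 and 179 CPM in the WT and 49.5, 106, 112 and 106 CPM in the RC/RC mice (log2 fold change -1.51, SE 0.29, adjusted p = 0.0098). Alas2, the erythroid enzyme of heme synthesis, was at 17.1, 16.8, 13.2 and 11.6 CPM in the WT and 1.69, 3.64, 3.63 and 3.70 CPM in the RC/RC mice (log2 fold change -2.22, SE 0.26, adjusted p = 0.0011). RC/RC mouse RC105 was the lowest for each, and no RC/RC mouse reached the lowest WT mouse. All 5 tested genes of the list were lower DEGs. What part the blood left in each kidney had in these values was not tested.

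Immediate early genes and clock genes, which respond to handling and to the hour of collection, also differed. Egr1 was at 10.4, 6.61, 9.76 and 15.7 CPM in the WT and 42.8, 36.4, 28.9 and 40.8 CPM in the RC/RC mice (log2 fold change 1.81, SE 0.24, adjusted p = 0.0021) and Junb at 22.0, 15.6, 24.2 and 16.8 CPM in the WT and 55.9, 68.7, 57.5 and 48.9 CPM in the RC/RC mice (log2 fold change 1.55, SE 0.17, adjusted p = 6.9e-04), and no RC/RC mouse overlapped WT. Zfp36, which destabilizes cytokine mRNAs, went the other way, at 93.5, 63.8, 60.7 and 145 CPM in the WT and 37.1, 44.7, 30.2 and 38.9 CPM in the RC/RC mice (log2 fold change -1.27, SE 0.27, adjusted p = 0.015). Of 14 such genes 5 were higher and 2 lower DEGs, and the lower count was 3 without WT mouse B6_3 and 1 without any other mouse. Arntl, the core clock activator, was at 4.38, 4.42, 4.36 and 5.98 CPM in the WT and 1.73, 2.49, 1.63 and 1.52 CPM in the RC/RC mice (log2 fold change -1.38, SE 0.23, adjusted p = 0.0055), and Dbp, which the clock drives, at 67.6, 97.2, 62.8 and 49.9 CPM in the WT and 139, 127, 122 and 136 CPM in the RC/RC mice (log2 fold change 0.92, SE 0.19, adjusted p = 0.012). The RC/RC mice had less Arntl and more Dbp than any WT mouse. The labels give no time of collection, so genotype and time of collection cannot be told apart for these genes. Of 11 genes often used as references for qPCR, 1 was a higher and 1 a lower DEG, and 9 were not DEGs, among them Hprt, Ywhaz and Gapdh (log2 fold change -0.11). B2m, the light chain of class I molecules, was higher (from 271 ± 54.3 to 518 ± 125 CPM) and lost its call without WT mouse B6_6 (adjusted p up to 0.06).

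The chromosome that carries Pkd1 was examined separately, because a knock-in allele is inherited with its neighbors. Within 5 Mb of Pkd1 on chromosome 17, 185 genes were tested, and 15 were lower and 11 higher DEGs. The share of lower DEGs was 8.11 percent, against 1.85 percent on the rest of the chromosome and 3.16 percent on the other chromosomes. The share of DEGs in both directions was 14.1 percent, against 13.5 and 12.9 percent. Within 10 Mb, 301 genes were tested and the lower DEGs were the same 15, or 4.98 percent, beside 33 higher ones, so that the share of lower DEGs depended on the width chosen. The lower ones included Tsc2, Rnps1, Atp6v0c, Hmga1, the lysosomal chloride-proton exchanger Clcn7 and the phosphatase Dusp1. Their log2 fold changes were -0.64, -1.46, -1.76, -0.67, -0.78 and -1.04, and Dusp1 lost its call when any 1 mouse except WT mouse B6_3 was left out (adjusted p up to 0.087). Among whole chromosomes, chromosome 4 had the highest share of lower DEGs, 5.86 percent of 972 genes, and it holds Arhgef19, Ndufs5, Hdac1, Hmgn2 and Eno1. Arhgef19 (chr4:141239499-141257564), an activator of RhoA, was at 23.6, 23.9, 28.2 and 29.1 CPM in the WT and 3.26, 3.69, 3.21 and 3.37 CPM in the RC/RC mice (log2 fold change -2.95, SE 0.13, adjusted p = 3.6e-06), and both genotypes varied little. These shares are descriptions, and no reason for them was tested.

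**Figure D4:**
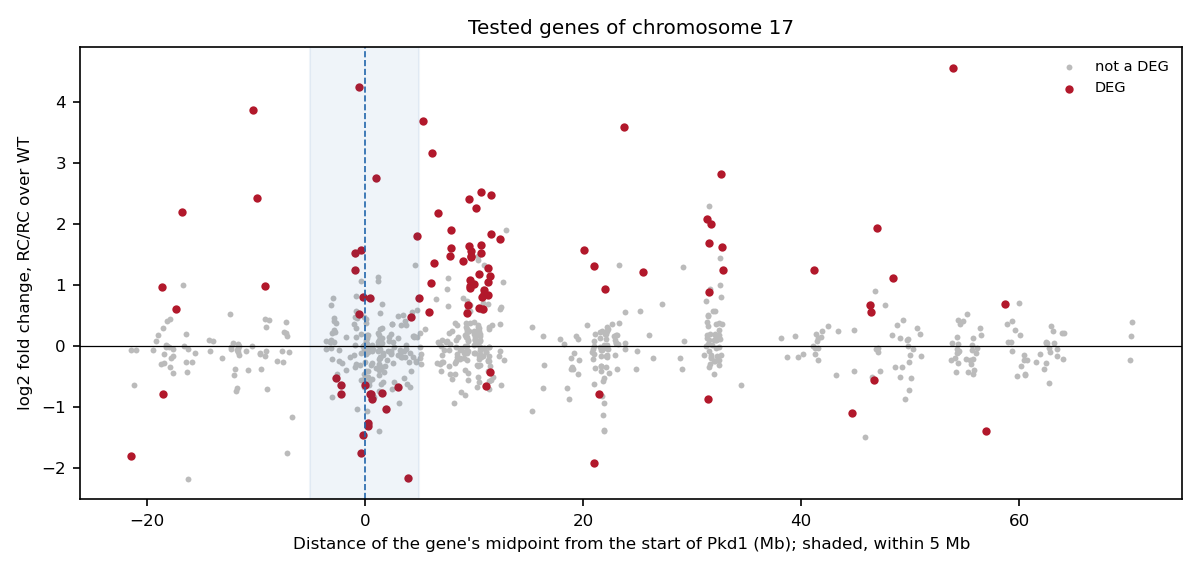
Log2 fold change of each tested gene of chromosome 17 (y axis, RC/RC against WT) against its distance from the start of Pkd1 (x axis, Mb), with DEGs in color and the window of 5 Mb on either side shaded. The 15 lower and 11 higher DEGs of the window lie among 185 tested genes, and Pkd1 itself lies near 0.

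A group of genes on several chromosomes had lower counts in RC/RC kidneys while a near-identical copy elsewhere in the genome had higher counts. Near copies were taken as transcripts of other genes with at least 95 percent identity over at least 50 percent of the shorter one. Of the DEGs, 207 had such a copy, 10.5 percent of the DEGs with a transcript in the annotation against 9.25 percent of all genes tested that have one. Both members were called in 68 pairs. In 17 of these, 25 percent, the members went in opposite directions, while over all 711 pairs of genes tested the signs were opposite in 29.1 percent. With pairs of immunoglobulin genes left out, these shares were 40.5 percent of 42 called pairs and 30.3 percent of 684 tested pairs, and the difference was not tested. The 17 pairs involved 13 genes that were lower and 16 that were higher. Not all of these were a gene and its processed copy, as the antisense transcript Gm9828 was paired with Cacna2d1 and Larp6 over 52.0 and 52.2 percent of the shorter transcript, and Gm13139 with Gm13251 and H2-T22 with H2-T10 are members of gene families. The coding stretches below show how few bases set 3 of these genes apart from their copies. Bases that differ are in capitals, and positions count from 1 at the A of the start codon of the parent gene.

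Ndufs5, positions 24 to 113: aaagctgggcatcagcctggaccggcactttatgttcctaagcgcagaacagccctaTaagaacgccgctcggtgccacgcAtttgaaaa
BC002163, the copy of Ndufs5: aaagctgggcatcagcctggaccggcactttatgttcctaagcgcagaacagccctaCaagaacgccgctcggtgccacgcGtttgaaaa
Atp6v0c, positions 30 to 119: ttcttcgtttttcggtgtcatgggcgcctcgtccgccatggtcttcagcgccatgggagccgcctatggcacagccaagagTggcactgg
Gm15487, the copy of Atp6v0c: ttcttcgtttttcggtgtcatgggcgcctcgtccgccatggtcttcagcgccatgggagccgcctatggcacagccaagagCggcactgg
Rnps1, positions 501 to 590: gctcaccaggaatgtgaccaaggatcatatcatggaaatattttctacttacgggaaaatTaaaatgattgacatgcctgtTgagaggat
Gm9825, the copy of Rnps1: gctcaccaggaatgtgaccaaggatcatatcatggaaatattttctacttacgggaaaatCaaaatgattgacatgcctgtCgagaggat

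The substitutions from parent to copy in these stretches were T81C and A105G for Ndufs5, T111C for Atp6v0c, and T561C and T582C for Rnps1. Over the whole aligned coding sequence Ndufs5 and its copy differed at 2 of 318 bases, Atp6v0c at 1 of 465 and Rnps1 at 5 of 843. The sequences are from GENCODE release M39 transcripts (GRCm39), and the coordinates are in mm10 as elsewhere.

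Ndufs5, a subunit of respiratory complex I at chr4:123712710-123718202, was at 95.3, 90.2, 69.6 and 74.5 CPM in the WT and 6.23, 10.6, 7.202 and 6.27 CPM in the RC/RC mice (log2 fold change -3.45, SE 0.20, adjusted p = 3.2e-05). BC002163, a pseudogene at chr16:42955631-42955949, was at 0.839, 0.279, 0.941 and 0.649 CPM in the WT and 70.5, 94.9, 106 and 81.3 CPM in the RC/RC mice (log2 fold change 7.02, SE 0.29, adjusted p = 3.4e-06). The genotypes were far apart for both, in opposite directions. The sum of the pair was 96.1, 90.4, 70.5 and 75.2 CPM in the WT and 76.8, 105.5, 113 and 87.6 CPM in the RC/RC mice, which overlapped. The parent's share of the sum went from 98.7 to 99.7 percent in WT mice to 6.35 to 10.05 percent in RC/RC mice.

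Atp6v0c, the proteolipid of the vacuolar proton pump at chr17:24163866-24169702, was at 307, 273, 242 and 252 CPM in the WT and 71.3, 70.1, 82.0 and 94.2 CPM in the RC/RC mice (log2 fold change -1.76, SE 0.14, adjusted p = 1.9e-04). Gm15487, its processed copy at chr6:37806086-37806550, was at 2.52, 2.51, 1.78 and 2.36 CPM in the WT and 91.7, 84.4, 98.4 and 112 CPM in the RC/RC mice (log2 fold change 5.39, SE 0.16, adjusted p = 2.8e-07). The sum of the pair was lower in every RC/RC mouse, at 271 ± 28.8 CPM in the WT and 176 ± 22.8 CPM in the RC/RC mice. Rnps1, an RNA-binding protein of splicing complexes at chr17:24414675-24425895, was at 38.8, 36.5, 36.2 and 33.6 CPM in the WT and 14.1, 13.1, 12.8 and 12.5 CPM in the RC/RC mice, and Gm9825, its copy at chr6:7981829-7983430, was at 0.326, 0.373, 0.0495 and 0.232 CPM in the WT and 14.2, 16.5, 16.03 and 15.3 CPM in the RC/RC mice. Parent and copy of Rnps1 were close to equal in each RC/RC mouse, and the sum went from 36.5 ± 2.18 to 28.6 ± 0.749 CPM.

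Eno1, the glycolytic enolase, and Hdac1, a histone deacetylase, kept most of the reads of their pairs. Eno1 went from 784 ± 90.3 to 503 ± 34.3 CPM and its copy Eno1b from 1.14 ± 0.313 to 145 ± 16.4 CPM, and Hdac1 went from 62.5 ± 2.32 to 39.2 ± 3.82 CPM and its copy Gm10093 from 0.4999 ± 0.191 to 11.9 ± 1.37 CPM. Hmgn2, a nucleosome-binding protein, had a log2 fold change of -1.57 and its copy Gm10282 one of 1.86. Ncoa4, the ferritin receptor of autophagy, went from 110.5 ± 12.6 to 62.7 ± 14.7 CPM, and its copy Gm6768 was at 0.839, 0.978, 0.495 and 0.788 CPM in the WT and 22.2, 8.21, 0.473 and 15.0 CPM in the RC/RC mice. RC/RC mouse RC140 was just below the lowest WT mouse for Gm6768 and the other 3 were above all WT mice, and the call of Gm6768 was lost without WT mouse B6_6 (adjusted p up to 0.054). Across the 13 lower genes the sums with their copies had log2 ratios of RC/RC to WT from -0.62 to 0.98 (Gm9828), with Znf41-ps at 0.79 and Ndufs5 at 0.21 next below, and they overlapped between the genotypes in 4 cases. How reads that fit several places were counted is not given in the sources used here, so the values of a parent and of its copy are uncertain on their own.

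**Figure D5:**
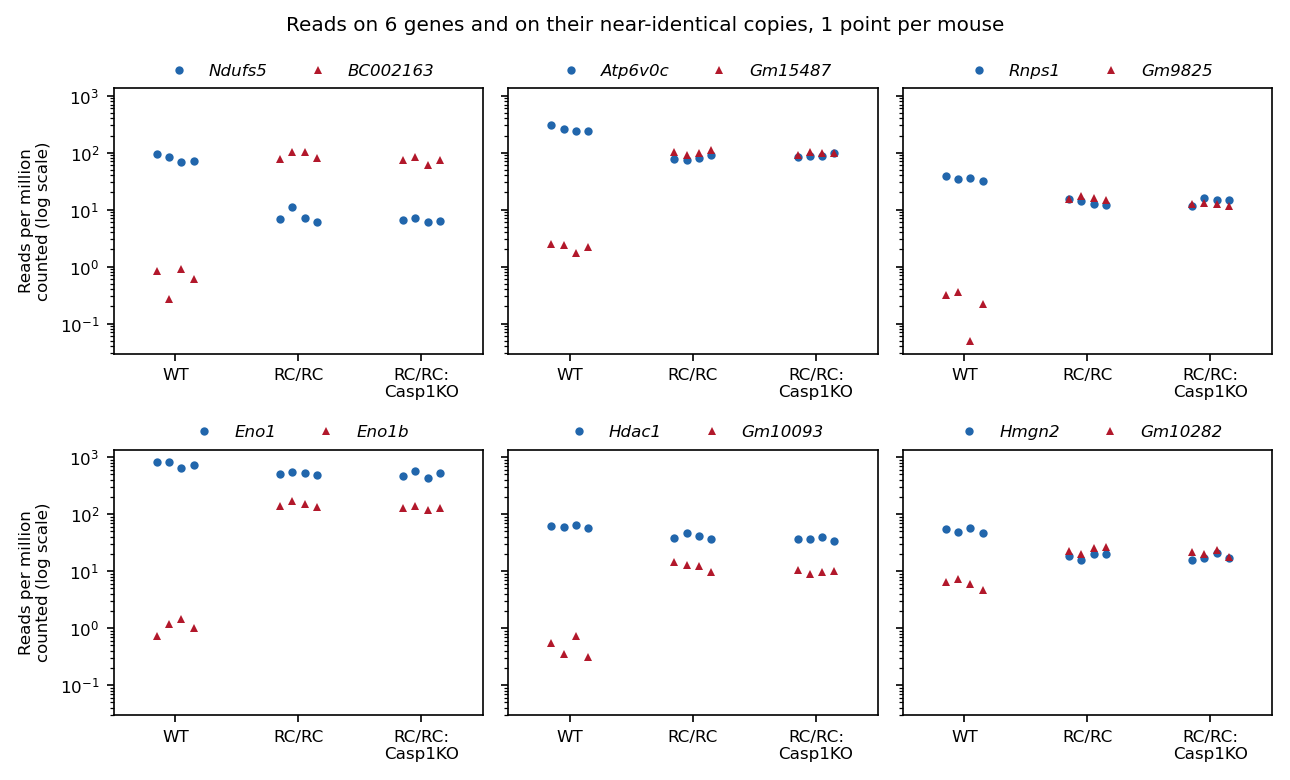
CPM without TMM scaling (y axis, log scale) of 6 genes (blue circles) and of their near-identical copies (red triangles), 1 point per mouse, in WT, RC/RC and RC/RC:Casp1KO mice. The copies sit at 7.16 or less in WT mice and at 9.68 to 173 in RC/RC mice, where the parent genes are lower than in WT.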

How the data were processed

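Total RNA had been extracted from kidneys with TRIzol, and poly(A) libraries were prepared and sequenced by Novogene. The authors deposited 1 table for the series with raw read counts per gene and mouse, the genomic coordinates and the gene length in base pairs. The submitters' processing notes name CASAVA 1.8, STAR and mm10. The counting tool, the annotation and the strand setting are not given in the sources used here, so reads of overlapping or antisense genes cannot be told apart. The deposited log2 fold changes, p-values, FPKM and group means were not used. Columns of unknown group numbered 0. Columns name genotype and mouse number, and each was assigned to its genotype only.

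Counts of the 8 mice were filtered with filterByExpr, scaled by TMM and compared (RC/RC against WT, no covariates) in R 4.3.3 by the quasi-likelihood test of edgeR 4.0.16. DEGs had an adjusted p-value (Benjamini-Hochberg, over all 15243 genes tested) under 0.05. Each SE was obtained by dividing the log2 fold change by the root of the test's F. CPM uses TMM-scaled library sizes, and FPKM was computed from the counts, the deposited gene length and the reads counted per mouse. Libraries held 18019819 to 24284831 counted reads, and 3 counts were taken as the floor, which covers counting error only.

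Members of the 55 gene lists and the genes named were chosen with earlier results of these data known. Named were Pkd1, in each list the defining members, the 2 called members with the largest change and the most abundant one, the 10 largest changes without overlap in each direction with 1 CPM in the higher group, and the 5 DEGs with the lowest p-values and the 5 with the largest changes in mean CPM in each direction. The text leaves out some of these, and other list members that it names were chosen after their values were seen. Members of each list were matched by symbol, and some genes are counted in a list but not reported here.

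Near copies were sought with BLAST 2.17.0 among GENCODE M39 transcripts (at least 95 percent identity over at least 100 bases and 50 percent of the shorter transcript). Alternatives were DESeq2 1.42.0, size factors by RLE, scaling by library size alone, no filter beyond 1 count, a filter of 10 counts in every mouse, the spread estimated from all 12 mice, limma 3.58.1 on log2(FPKM + 1), and each mouse left out in turn. The fits were tested on simulated data. Tables were handled with Python 3.11.15 and pandas 2.3.3 and plots with matplotlib 3.10.9.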

Additional observations from a re-analysis of the deposited data

Results flagged for a closer look

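In groups of 4 mice, 1 mouse was set apart where its gap to the nearest of the others exceeded the share of the group's range that Dixon's test allows at the 95 percent level. This was examined in 482 groups of values and met in 37 (7.68 percent). Chance flags about 1 in 20 groups, and values of the same library are not independent.

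RC/RC mouse RC139 stood apart most often. It was above the other RC/RC mice for the adipose list (1409 CPM against 0.3001 to 145 CPM) and its gene Cfd (1002 against 0 to 101.3). The same held for the complement list (3105 against 1422 to 1598), which holds Cfd. For B lineage transcripts it was above the others in the summed list (2338 against 1104 to 1259), in all immunoglobulin genes together (2728 against 1322 to 1541), Igkc (916), Igj (232) and Cd79a (3.64). It was also the highest for Il33 (44.8), Hk2 (9.25), Nphs1 (27.8) and Cyp1a1 (3.01). What part the adipose tissue in that library had in these values was not tested.

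RC/RC mouse RC105 was the lowest of its group for the red blood cell list (123.2 CPM against 254 to 264), with Hbb-bs (61.7), Hba-a1 (49.5) and Alas2 (1.69), and for Dusp1 (33.4 against 53.36 to 53.43) and BC018473 (67.3 against 113 to 121). It was the highest for Slc12a1 (1353 against 681 to 731), Cdh1 (234 against 160.2 to 164), Ccr2 (27.0) and Slitrk6 (2.66 against 0.104 to 0.295).

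Among WT mice, mouse B6_4 was the highest for the adipose list (29.2 CPM against 0.232 to 1.44), Cfd (18.8), the urothelial list (35.7 against 2.36 to 7.87), Wnt4 (14.0 against 1.44 to 2.38) and Ighm (28.3 against 4.27 to 6.25). WT mouse B6_3 held the single read of Wnt7a (0.0466 CPM), was lowest for Gli3 (0.745), Ighg1 (0.0931) and Il1r1 (8.94) and highest for Slitrk6 (9.501) and Btc (9.97). WT mouse B6_2 was the highest for the class II list (841) and H2-Ab1 (167). WT mouse B6_6 was the highest for Arntl (5.98) and for the share of reads in its 10 most abundant genes (15.9 percent against 14.4 to 14.6 percent).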

How the results depend on the processing

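The total and the higher DEGs stayed within 1.5 times of 1971 and 1487 under every alternative that kept all 8 mice. The total was 2900 with DESeq2, 1941 with RLE size factors, 1897 with library size alone, 1972 with all genes that had a count, 1470 with 10 counts in every mouse, 2650 with the spread taken from all 12 mice and 1742 with limma on log2(FPKM + 1). The lower DEGs, 484 in all, were 1043 with DESeq2, 263 with library size alone, 861 with the spread from 12 mice and 275 with limma on FPKM. With 1 mouse left out, the total ranged from 1162 to 2440, the higher DEGs from 954 to 1786 and the lower from 208 to 654. It was without WT mouse B6_6 and RC/RC mouse RC139 that the total moved most downward, and without RC/RC mouse RC140 that the lower DEGs were 213. The cause was not tested, beyond the smaller number of mice. Of the 1971 DEGs, 1965 were also called by DESeq2, 1587 by limma on FPKM and from 1125 to 1804 with 1 mouse left out. DEGs that were higher made up 64.0 percent with DESeq2, 67.5 percent with the spread from 12 mice, 84.2 percent with limma on FPKM and 86.1 percent with library size alone, against 75.4 percent. The median log2 fold change of all genes tested was 0.08 with library size alone and -0.02 with TMM.

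The alternatives were read for 180 of the tested genes the text names, which leaves out some, such as Cacna2d1, Larp6 and Gm8116. Of the 180 genes, 145 were DEGs. None of these changed direction under any alternative, and all but 41 were called in every one that gave a value. Direction changed for Pkd1, Pkhd1 and Yap1, none of them called. Pkd1 was at -0.078 to -0.040 without WT mouse B6_2 or B6_3 or RC/RC mouse RC139, and over all 8 runs with 1 mouse left out it ranged from -0.078 to 0.16. Pkhd1 was at -0.25 without RC/RC mouse RC105, with a range from -0.25 to 0.23, and Yap1 was at -0.00502, -0.00865 and -0.00582 without WT mouse B6_2, WT mouse B6_6 and RC/RC mouse RC140 and at -0.029 without RC/RC mouse RC139, with a range from -0.029 to 0.064. Some called genes lost their call under an alternative with all 8 mice. These were Egf, Pde4c, Slc8a1, Cubn, Dusp1, Nphs1, Ppargc1a and Srxn1 with library size alone, Lamc1 and Ms4a1 with RLE size factors, Egf, Pde4c, Slc8a1, Lamc1 and Ppargc1a with 10 counts in every mouse, C4b (adjusted p = 0.066), Arntl (0.052), Asns, Cry1, Cry2 and Ms4a1 with the spread from 12 mice, Glis2, Lamc1 and Ms4a1 with all genes that had a count, and Cndp2, Gli1, Gli3, Gm6768 and Ugt2a3 among others with limma on FPKM. Of the 180 genes, those not called in the report that DESeq2 called were Aqp2, Adcy6, Col4a1, Col4a3, Wwtr1, Csf1r, Ighm, Ccl28 and Ccnd1. Other alternatives with all 8 mice also called some of these. They were Aqp2, Col4a3, Wwtr1, Ighm and Ccnd1 with the spread from 12 mice, Wwtr1, Ighm and Ccnd1 with limma on FPKM, Wwtr1 and Ccnd1 with library size alone, Col4a3, Ighm and Ccl28 with all genes that had a count, and Col4a3 with RLE size factors. Slc12a1 and Cdh1 were called only without RC/RC mouse RC105, Slc34a1 only without RC/RC mouse RC143 and Wnt4 only without WT mouse B6_4. Of 110 counts of DEGs by list and direction, 21 moved by more than 1.5 times or from or to 0 with DESeq2, 1 with RLE size factors, 14 with library size alone, 6 with all genes that had a count, 10 with 10 counts in every mouse, 14 with the spread from 12 mice, 17 with limma on FPKM and 15 to 22 with 1 mouse left out.

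No paired analysis was possible because the columns carry no replicate number, and no fit had a term for sex. The depth allowed no statement below the floor of 3 counts, 0.112 to 0.158 CPM per library. For this reason Wnt7a, Inhba, Il1rn, St6galnac1 and BC018473 in WT, Cxcl2 and single IgG genes, among others, rest on few reads. The labels give no litter, batch, date or hour of collection, and adipose and urothelial tissue differed between libraries.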

Other observations

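In lists of drug metabolism and stress genes the share of DEGs was near the 12.9 percent of all genes tested. It was 13.2 percent for cytochrome P450 families 1 to 4 and 15.4 percent for UDP-glucuronosyltransferases. For NRF2 targets it was 10 percent, and for the endoplasmic reticulum and integrated stress response 8.33 percent. Of 38 tested genes of cytochrome P450 families 1 to 4, 5 were higher and none was lower. The higher count was 1 without WT mouse B6_3, B6_4 or B6_6 or RC/RC mouse RC105 or RC140 and 2 without RC/RC mouse RC139 or RC143, and 3 were lower without WT mouse B6_4. Of the 38 genes 26 had a negative log2 fold change (median -0.39). Among the higher DEGs was Cyp2a5, an enzyme of coumarin and nicotine oxidation, at 65.2, 170.2, 170.1 and 112 CPM in the WT and 254, 185, 388 and 446 CPM in the RC/RC mice (log2 fold change 1.30). Cyp1a1, the classic target of the aryl hydrocarbon receptor, was at 1.21, 0.885, 0.941 and 0.696 CPM in the WT and 2.03, 3.01, 2.10 and 2.15 CPM in the RC/RC mice (log2 fold change 1.31), and no RC/RC mouse overlapped WT for either gene. Among 13 UDP-glucuronosyltransferases, Ugt2a3 was the higher DEG, at 0.886, 0.699, 1.83 and 0.974 CPM in the WT and 2.70, 2.65, 14.2 and 19.2 CPM in the RC/RC mice, and Ugt2b38 the lower one, at 110.4, 94.1, 783 and 650.2 CPM in the WT and 0, 0, 0 and 0 CPM in the RC/RC mice (adjusted p = 0.0025). No RC/RC library held a read of Ugt2b38, which allows up to 0.112 to 0.158 CPM per library, and WT mice B6_4 and B6_6 were far above WT mice B6_2 and B6_3. Counts of single members of this family of close paralogs are uncertain. The list had 3 lower DEGs without RC/RC mouse RC143. Of 10 NRF2 targets, Srxn1, which repairs peroxiredoxins, was the 1 DEG (log2 fold change -0.58), and of 12 genes of the endoplasmic reticulum and integrated stress response it was Asns, asparagine synthetase (0.86). Adjusted p-values from edgeR's quasi-likelihood test were 0.042, 0.013, 0.018, 0.033 and 0.047 in this order, and the call of Cyp1a1 held with any 1 mouse left out. Ugt2a3 lost its call without WT mouse B6_3 or B6_6 (adjusted p up to 0.058), Cyp2a5 without WT mouse B6_2, B6_3, B6_4 or B6_6 or RC/RC mouse RC105, RC140 or RC143 (adjusted p up to 0.11), Srxn1 without WT mouse B6_2, B6_3 or B6_6 or RC/RC mouse RC105, RC139 or RC140 (adjusted p up to 0.081) and Asns without WT mouse B6_2, B6_3, B6_4 or B6_6 or RC/RC mouse RC105, RC139 or RC140 (adjusted p up to 0.13).

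In the clock list 3 of 14 genes were higher and 1 lower. Besides Dbp and Arntl these were Cry1 and Cry2, repressors of the clock. Cry1 was at 4.75, 6.38, 3.91 and 1.90 CPM in the WT and 7.16, 14.4, 17.5 and 11.8 CPM in the RC/RC mice (log2 fold change 1.58), with WT mouse B6_6 lowest and RC/RC mouse RC140 highest, and Cry2 had a log2 fold change of 0.46. Their adjusted p-values were 0.022 and 0.029, and the calls were lost without WT mouse B6_4 or RC/RC mouse RC139 or RC140 (adjusted p up to 0.067) and without WT mouse B6_2, B6_4 or B6_6 or RC/RC mouse RC105 or RC140 (adjusted p up to 0.096). In the list of EGF and FGF ligands and receptors 2 of 17 genes were higher DEGs, Hgf and the EGF family ligand Btc (log2 fold change 0.88), and Egf was the 1 lower DEG. Btc lost its call without WT mouse B6_2, B6_4 or B6_6 or RC/RC mouse RC105, RC140 or RC143 (adjusted p up to 0.13). The 8 adrenal gland genes summed to 3.45, 2.89, 3.37 and 4.08 CPM in WT and 3.08, 4.001, 2.89 and 2.48 CPM in RC/RC mice. Of 5 genes of the sex chromosomes and 10 genes known to differ by sex in the kidney, none was a DEG, and the latter summed to 2782, 6778, 22362 and 20322 CPM in WT and 5522, 3429, 16383 and 17233 CPM in RC/RC mice.

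The 4 RC/RC:Casp1KO mice, which took no part in the comparison, also had reads on most of the copies. In them Ndufs5 held 7.91 to 8.87 percent of the sum with its copy, against 6.35 to 10.05 percent in RC/RC mice. Atp6v0c held 45.8 to 49.9 percent and Rnps1 47.7 to 55.3 percent of theirs, against 43.7 to 45.7 and 44.3 to 49.7 percent in RC/RC mice. Some pairs differed. Ncoa4 held 99.2 to 99.4 percent of its sum with Gm6768 in RC/RC:Casp1KO mice, against 99.2 to 99.5 percent in WT and 69.9 to 99.3 percent in RC/RC mice. Gm8116, the copy of 2410127L17Rik, was at 0.213, 0.121 and 0.148 CPM without TMM scaling in 3 RC/RC:Casp1KO mice and at 4.75 in the other, against 0.177 to 0.442 in WT and 4.17 to 5.06 in RC/RC mice. Gm9828 held 8.57 to 15.3 percent of its sum, against 10.6 to 12.9 percent in WT and 2.08 to 3.72 percent in RC/RC mice. These values are descriptions of 4 mice each, and the differences were not tested.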
